A study of Homo sapiens with 2 samples.

Results

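The regions described here are the RNA peaks around stop codons. A peak was a member when its summit, the middle of the deposited thick interval, lay within 50 nt of the stop codon, counted along the spliced transcript and on the same strand. The stop codon was that of 1 representative coding transcript of the gene named for the peak (GENCODE 29, best APPRIS tag, then the longest coding sequence, CDS). Of 100792 peaks listed in replicate 1, 2877 were members, and of 109413 in replicate 2, 3008 were, so 5885 of 210205 peaks in all. They lay in 2517 genes of replicate 1 and 2665 genes of replicate 2. The selection used position only, so the position of the members within the window is a description.

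Both libraries belong to a single group labelled TRACER, a word the labels do not explain. They were made with a Qiagen microRNA kit protocol from cytoplasmic, Trizol-extracted RNA of HEK293T, a widely used cell line from human embryonic kidney, after 24 hours in doxycycline at 3 ug/mL. Per the series text, the aim was to find elements within RNAs that associate with CCR4-NOT. No input, untreated or other control library is described, and whether the 2 libraries came from separate cultures is not stated, so their spread may be technical. No test between conditions was therefore possible, and with 2 libraries the smallest p of a sign-flip test would be 0.5. Values are given per library, as mean ± SD over both libraries, or with an exact 95% binomial interval that covers counting error within a library only. Reads in a peak and the abundance of the RNA cannot be told apart without an input library.

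At a stop codon, release factors end translation and the ribosome leaves the messenger RNA. The bases before it belong to the last codons, which elongating ribosomes cross, and the bases after it open the 3′ UTR, where RNA-binding proteins and microRNAs find most of their sites. CCR4-NOT is the main complex that shortens poly(A) tails, and adaptors bring it to particular messages. Among these adaptors, Pumilio proteins read the element UGUANAUA, and YTHDF2 reads N6-methyladenosine, a mark placed mostly in words of the GGACU type and known to be dense around stop codons.

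The sequences below show the stop codons (capitals) with 15 bases before and 12 after, for genes with some of the strongest members on each side, and for NDUFB2, which led the members with their summit in the stop codon. They are GENCODE 29 transcript sequences on GRCh38, 5′ to 3′, with T for U. HIST2H3A and HIST2H3C are both shown because their sequence here is shared.
RPS24: aaaaagccgaaggagTAAaggtgctgcaat
HMGB2: gatgaagatgaagaaTAAatggctatcctt
NDUFB2: cctgatgatgaagacTGAaggtgtagactc
ATF4: aagaaaagggtccccTAGttgaggatagtc
HIST2H3A: cgtggagagcgggctTAAgaagtggcggtt
HIST2H3C: cgtggagagcgggctTAAgaagtggcggtt
NFKBIA: cagcgtctgacgttaTGAgcgcaaaggggc
FBL: cccaaggtgaagaacTGAagttcagcgctg

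The next lines show the words the motif results below turn on, in 30 bases around the word (capitals) under strong members after the stop codon. The first 4 hold GGACU and the last 4 the Pumilio element, and all 8 were chosen after the values were seen. Unmarked, the HSPA1B line holds GGACU again, and the HSPA5 line holds it after the Pumilio element.
HSPA1B: tgtctttgaggtGGACTgttgggactcaag
NFKBIA: ctgaaagaacatGGACTtgtatatttgtac
RPL29: atgaggacagaaGGACTggtgcgacccccc
PPP1CC: actgcctagtcgGGACTtgtaacatagagt
ATF4: gtcaatgtgctTGTACATAgagtgctgtag
MRPL16: taggagataacTGTATATAggctactgaaa
HSPA5: tgctgtaatatTGTAAATActggactcagg
TRIR: actctctgcgaTGTACATAactatttaatg

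Summed over all peaks the lists held 1624888 reads in replicate 1 and 1704925 in replicate 2. These are sums over peaks and not the depth of sequencing, which is unknown here. The median peak of the whole series held 6 reads in each library, and the smallest 3. Of 20048 gene identifiers in the lists, 19811 were found in the annotation, and 12001 and 12090 genes had both a peak and an annotated stop codon.

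Members were short and held few reads, as peaks in general did, but were slightly wider and stronger than all peaks. The median member held 7 reads in each library. The median width was 30 nt (replicate 1) and 31 nt (replicate 2), against 27 and 28 nt for all peaks. The strongest held 295 and 305 reads. Positions listed under more than 1 gene were 132 and 168 of the members. The 25 nt around the summit also occurred in another annotated gene for 15.4% and 14.03% of members, which held 27.2% and 24.8% of the member reads. Such copies were more common before the stop codon (19.8% and 17.2%) than after it (8.72% and 8.91%). Copies were not counted for other peaks, so these shares have no background. Members with 10 reads or more were 35.7% of replicate 1 and 39.8% of replicate 2, against 28.4% and 30.9% of all peaks. Most genes with a member had 1, namely 2193 of 2517 and 2343 of 2665, and none had more than 4. Members made up 2.85% of the peaks and 2.38% of the peak reads of replicate 1, and 2.75% and 2.48% of replicate 2. Of the members, 42.4% and 46.5% had a deposited p-value of 1e-05 or less, against 33.5% and 36.1% of all peaks. Flanking peaks, with summits more than 100 and up to 200 nt from the stop codon, had 44.7% and 47.2% before it and 38.8% and 42.1% after it, so the members lay between the flanks on this measure.

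More summits lay before the stop codon than after it. In replicate 1, 1734 members (60.3%) had their summit before it, 64 in it and 1079 after it. In replicate 2 the counts were 1859 (61.8%), 94 and 1055. The interval of the peak held all 3 bases of the stop codon in 877 and 943 members. It lay wholly before the stop codon in 1171 and 1264, and wholly after it in 713 and 684. At the edges of the window, 182 and 192 summits lay 46 to 50 nt before the stop codon and 176 and 199 lay 51 to 55 nt before it. On the other side, 107 and 102 lay 46 to 50 nt after it and 100 and 120 lay 51 to 55 nt after it. The median reads of these edge peaks ran from 6 to 8.

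The stop codon marked a step down in peak density and not a local maximum. The profile used genes with at least 300 nt of CDS and of 3′ UTR, 9679 in replicate 1 and 9743 in replicate 2. In these, replicate 1 had 2.68 summits per nt per 1000 genes in the 50 nt before the stop codon, against 2.97 in the flank before it. Replicate 2 had 2.90 against 3.49. After the stop codon, replicate 1 had 1.72 within 50 nt, against 1.76 in the flank after it, and replicate 2 had 1.68 against 1.82. Over all genes long enough for both windows, the density within 50 nt before was 0.885 and 0.806 times that of its flank, a mean of 0.846. The density within 50 nt after was 0.993 and 0.918 times that of its flank, a mean of 0.956. The second ratio changed side with the flank: against a flank beyond 200 and up to 300 nt after the stop codon its mean was 1.04. The step itself lay between the last 10 bases of the CDS, with 2.56 and 2.52 summits per nt per 1000 genes, and bases 21 to 30 of the 3′ UTR, with 1.67 and 1.499.

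**Figure D1:**
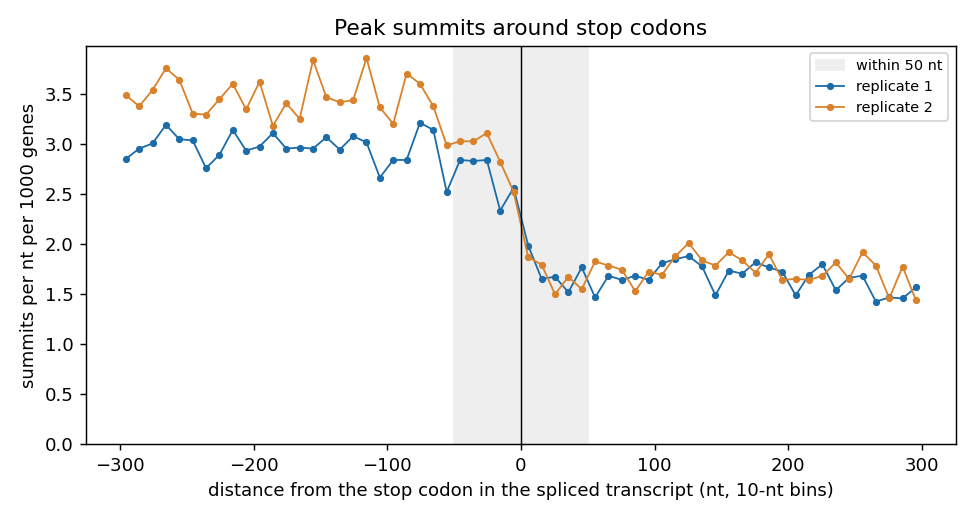
Summits per nt per 1000 genes (vertical axis) in bins of 10 nt by spliced distance from the stop codon (horizontal axis; negative is before it), 1 line per library, with the 50 nt window shaded. Both lines step down across the stop codon, with 2.56 and 2.52 in the last 10 bases before it and 1.67 and 1.499 at bases 21 to 30 after it, and neither has a maximum there.

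Counting bases under peaks in place of summits gave the same course. At 50 nt before the middle of the stop codon 8.75% and 10.5% of genes had a peak over the base, at the stop codon 7.45% and 7.82%, and at 30 nt after it 5.44% and 5.67%. The lowest coverage within 100 nt lay at 32 nt after the stop codon in replicate 1 (5.37%) and at 41 nt in replicate 2 (5.49%). Summits before the stop codon showed no preferred codon base. In replicate 1, 33.7%, 32.6% and 33.7% fell on the opening, middle and last base of a codon, and in replicate 2 33.4%, 33.2% and 33.4%.

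Members repeated between the libraries about as often as other peaks of the same strength. Of the members of replicate 1, 64.8% (63.0 to 66.6) overlapped a peak of replicate 2 by at least 1 nt, against 60.5% of all peaks. Of those of replicate 2, 61.1% (59.4 to 62.9) overlapped a peak of replicate 1, against 55.8% of all peaks. Overlap depended on reads. For members of 3 to 4 reads it was 36.5% and 27.2%, against 33.7% and 27.6% of all peaks with so few reads. For members of 50 reads or more it was 100% of 127 and 132, against 98.7% and 99.01% of all such peaks. By gene, 1598 had a member in both libraries, which is 63.5% of the member genes of replicate 1 and 59.96% of those of replicate 2. Where 2 members of a gene overlapped between the libraries, which gave 1754 pairs, their summits lay a median of 4 nt apart.

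The strongest members before the stop codon came from ribosomal protein and tubulin genes. RPL8, a protein of the large ribosomal subunit, had 295 reads in replicate 1 and 305 in replicate 2, with summits 10 and 11 nt before the stop codon. TUBA1B and TUBA1A encode alpha tubulins, subunits of microtubules. TUBA1B had 253 and 272 reads and TUBA1A 241 and 267, and all 4 summits lay 48 to 50 nt before the stop codon. The 25 nt around each of these summits also occur in 3 other annotated genes, so reads of the tubulin copies cannot be told apart. The same holds for RPL8 (2 other genes) and RPL35 (2). RPL36, also of the large subunit, had 223 and 294 reads with both summits 49 nt before its stop codon (chr19:5691619-5691621, plus strand), and its 25 nt occur in no other gene. RPL35 had 213 and 239 reads.

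RPS24, of the small ribosomal subunit, had members on both sides of its stop codon (chr10:78040624-78040626, plus strand). The one before it had 245 and 248 reads and its summit lay 49 nt away in spliced distance, but in the exon before that of the stop codon. The 25 nt around that summit also occur in 1 other gene. A peak with its summit 25 and 20 nt after the stop codon had 121 and 119 reads, and one over the stop codon itself had 69 and 90. Together these members held 52.8% and 45.9% of the gene's peak reads. HMGB2, a chromatin protein with an acidic tail, had a similar pair. A peak with its summit 23 and 20 nt before the stop codon (chr4:173332080-173332082, minus strand) held 168 and 177 reads, and one 27 and 26 nt after it held 128 and 131. The bases before its stop codon, printed above, are a run of codons for acidic residues. RPLP1 had 177 and 135 reads and SNRPF, a protein of the Sm ring of splicing complexes, 116 and 139. Each of these summits is matched in 1 other gene.

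After the stop codon, ATF4 led. ATF4 is the transcription factor of the integrated stress response. Its peak at chr22:39522624-39522680 (plus strand, the same bounds in both libraries) had 239 and 278 reads, with summits 42 and 40 nt after the stop codon. The Pumilio element printed above has its middle 34 nt after the stop codon, under this peak. A neighbouring member over the stop codon had its summits 15 and 17 nt after it. With it and a weaker peak before the stop codon, members came to 430 and 540 reads. They held 52.2% and 51.7% of all ATF4 peak reads. The representative 3′ UTR of ATF4 is 81 nt long, so the window takes up most of it.

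HIST2H3A and HIST2H3C, copies of a histone H3 gene, each had 202 and 203 reads with summits 2 to 8 nt after the stop codon. Their 25 nt match each other, and reads of the copies cannot be told apart. H3F3B, which encodes the replacement histone H3.3, had 125 reads in replicate 1 and 192 in replicate 2, with summits 28 and 32 nt after the stop codon. HSPA1B, an inducible HSP70 chaperone, had 134 and 153 reads at 40 and 44 nt. NFKBIA, the inhibitor of NF-kappaB, had 118 and 175 reads at 26 and 24 nt (chr14:35401919-35402005 in replicate 1, minus strand). That single member held 42.3% of the peak reads of NFKBIA in replicate 1 and 59.9% in replicate 2. FBL, fibrillarin, which methylates ribosomal RNA, had 124 and 118 reads, and RPL38 had 109 and 117.

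The stop codon itself, only 3 nt long, held 1.65 and 2.50 summits per nt per 1000 genes, against 1.72 and 1.68 in the 50 nt after it. These 64 and 94 members had a median of 6 and 8 reads. Their leading ones held fewer reads than those on either side, which were drawn from many more members. In both libraries 10 genes had a member with its summit in the stop codon. NDUFB2, a subunit of respiratory complex I, led with 28 and 36 reads. ANXA11, an annexin, followed with 11 and 17, COMMD4 with 10 and 19, ADSL, an enzyme of purine synthesis, with 10 and 9, and BIRC5, survivin, with 8 and 12. A stronger peak, over the stop codon of the chaperone gene HSP90AB1, had 82 reads in replicate 1 with its summit 1 nt before the stop codon, and 112 reads in replicate 2 with its summit in it.

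**Figure D2:**
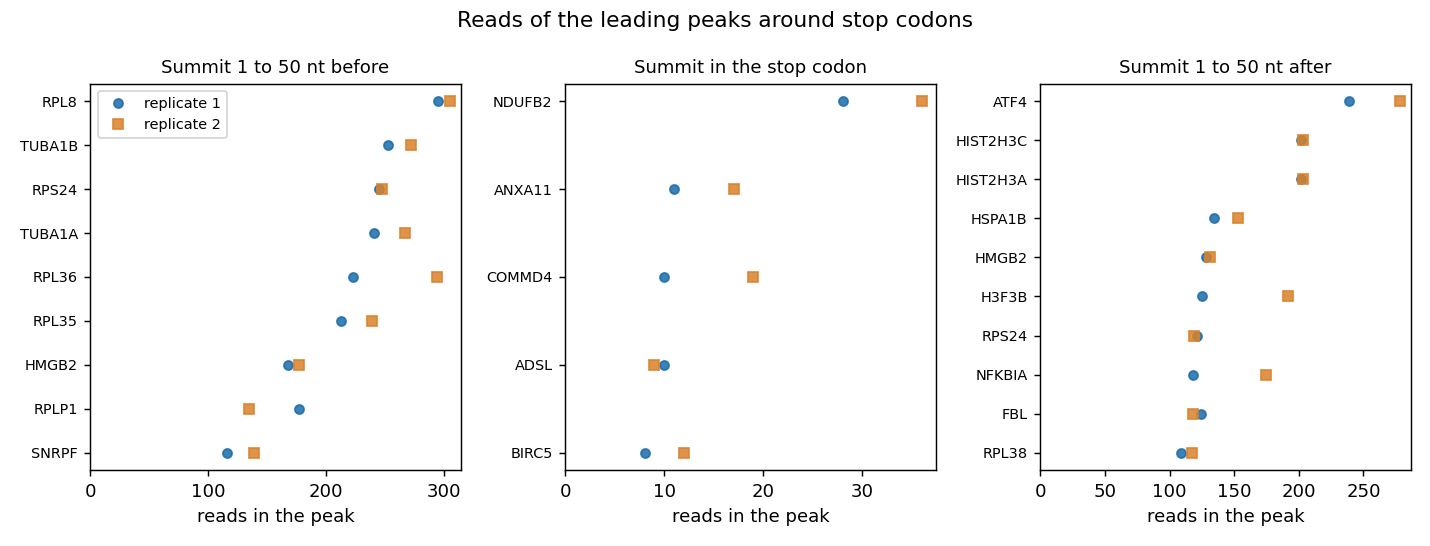
Reads in the strongest member (horizontal axis, in reads, scaled per panel) of genes leading in both libraries, with the summit before, in or after the stop codon, circles for replicate 1 and squares for replicate 2. Members before the stop codon reach 295 and 305 reads (RPL8), those after it 239 and 278 (ATF4) and those in it 28 and 36 (NDUFB2).

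Some genes had most of their peak reads in this window. UQCR10, a small subunit of respiratory complex III, had 74.7% of its peak reads in members in each library, and UQCR11, of the same complex, 80.1% and 56.6%. NDUFA1, of complex I, had 61.7% and 56.6%, PSMG4, a proteasome assembly chaperone, 65.6% and 50.9%, and MND1, a meiotic recombination factor, 63.3% and 51.5%. Any part of gene length in these shares was not tested. These 5 genes have coding sequences of 168 to 615 nt and 3′ UTRs of 128 to 1072 nt. Some of their members lay across a splice junction from the stop codon, as did 161 members of replicate 1 and 169 of replicate 2 in an exon before that of the stop codon and 55 and 48 in an exon after it.

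Genes with a member were more strongly represented in the peak lists and had shorter coding sequences. They had a median of 78 and 87 peak reads, against 32 and 39 for all genes with a peak. The share of genes with a member was 2.89% and 2.54% at 3 to 9 peak reads per gene, and 57.5% and 54.1% at 300 reads and over. Their median CDS was 1005 and 1029 nt long, against 1395 and 1398 nt, and their median 3′ UTR 965 and 1001 nt, against 1114 and 1105 nt. The stop codon lay in the last exon in 94.7% and 94.3% of them, against 95.6% and 95.7%.

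For 18 gene lists, the reads in members were set against those that an even spread of the gene's exonic peak reads along the transcript would place in the window. Over all protein-coding genes with at least 10 peak reads, of which 26.4% and 26.9% had a member, the ratio was 1.01 ± 0.0188 (SD, n = 2). It was 2.45 ± 0.148 for the alpha and beta tubulins, where 6 of 11 genes in replicate 1 and 7 of 11 in replicate 2 had a member and TUBA1A and TUBA1B held most of the reads. It was 1.61 ± 0.0169 for heat shock proteins (9 of 15 and 10 of 15 genes), where HSPA1B and HSP90AB1 led. For nuclear proteins with acidic tails or stretches it was 1.55 ± 0.295 (12 of 15 and 9 of 15), led by HMGB2 and PTMA. The TUBA1A and TUBA1B summits lay 48 to 50 nt before the stop codon, at the edge of the window. No other window was tried for the lists. Members of tubulin genes and of PTMA have copies elsewhere, and the part of such copies in these ratios was not tested. The share of genes with a member rose with peak reads per gene, as given above, and the lists were not matched for reads.

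Several other lists lay nearer an even spread. Cytosolic ribosomal protein genes had a ratio of 1.20 ± 0.0578, with a member in 63 of 85 and 59 of 85 genes, against 26.4% and 26.9% of all genes with 10 reads. Subunits of oxidative phosphorylation had 1.13 ± 0.0292 (48 of 80 and 45 of 80 genes), CCT chaperonin genes 1.24 ± 0.0343 (6 of 8 in each), initiation factors 0.972 ± 0.0165 and replication-dependent histones 0.984 ± 0.0939. The list of elongation factors, which also holds TPT1, was lowest of the 18 lists, at 0.292 ± 0.0683. EEF1A1, which brings aminoacyl-tRNA to the ribosome, had 42 and 23 member reads of 1452 and 1321. TPT1, not itself an elongation factor, had 50 and 39 of 564 and 598. Pumilio targets and adaptors were also low at 0.467 ± 0.168, with a member in 3 of 16 and 5 of 16 genes. Nonsense-mediated decay factors had 0.714 ± 0.0133, with a member in 5 of 16 and 6 of 17. These lists rest on few member reads, 20 and 47 for the former and 50 and 65 for the latter. Aminoacyl-tRNA synthetases had 0.740 ± 0.0347 (9 of 20 in each) and hnRNP genes 0.803 ± 0.104 (14 of 24 and 13 of 22). Termination and rescue factors (1.24 and 0.643), genes with known readthrough of the stop codon (1.09 and 0.683) and selenoproteins (1.27 ± 0.332) differed more between the libraries, and proteasome subunits had 0.974 and 0.918.

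**Figure D3:**
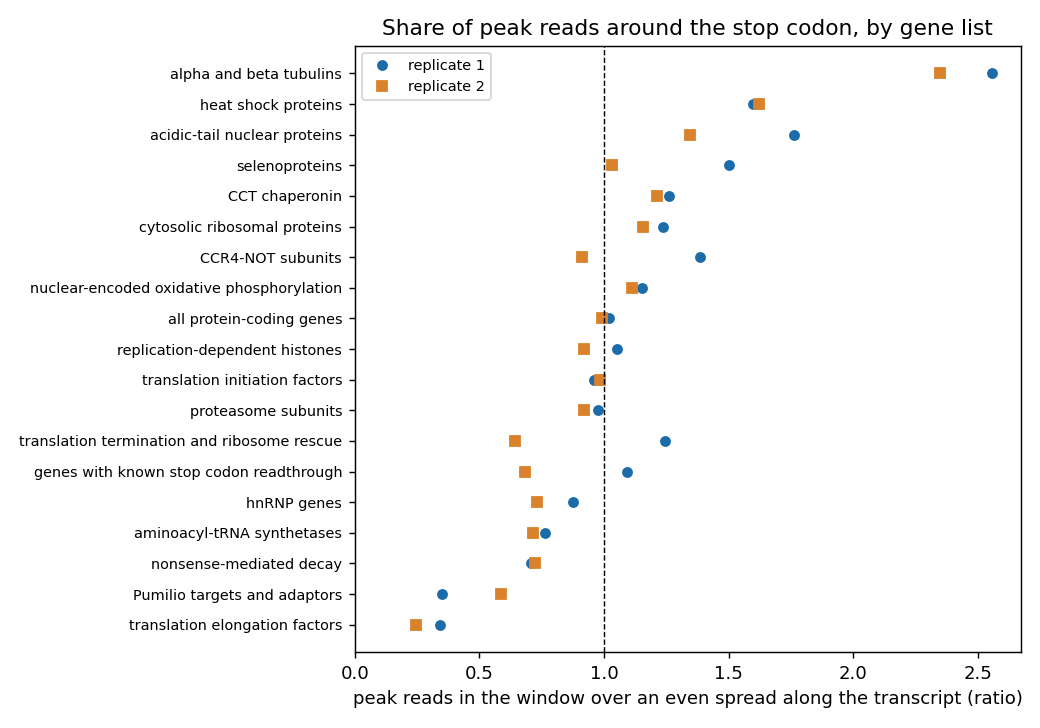
Ratio of peak reads within 50 nt of the stop codon to an even spread along the transcript (horizontal axis), by gene list, circles for replicate 1 and squares for replicate 2, with a dashed line at 1. Tubulins lie highest, at 2.56 and 2.35, and the list of elongation factors and TPT1 lowest, at 0.340 and 0.243, while all protein-coding genes lie at 1.02 and 0.992.

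Of CCR4-NOT subunits with at least 10 peak reads, 25% (replicate 1) and 18.2% (replicate 2) had a member. The share was 26.4% and 26.9% for all protein-coding genes with at least 10, which were not matched to the subunits for reads. CNOT1, the scaffold of the complex, had 10 and 15 reads with summits 14 and 12 nt before its stop codon, out of 790 and 1632 peak reads in the gene. CNOT7, a deadenylase subunit, had 28 and 46 reads at 32 and 28 nt before it, out of 1374 and 1675. CNOT6L, another deadenylase, had a member of 27 reads in replicate 1 alone, with its summit at the edge of the window, 50 nt after the stop codon. That peak was 159 nt wide and overlapped a peak of replicate 2 that was no member. These were 3 of 12 subunits in replicate 1 and 2 of 11 in replicate 2, and the ratio to an even spread was 1.39 and 0.911.

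The identity of the stop codon in member genes was close to that of all genes with a peak. UAA ended 29.2% and 27.4% of member genes, against 28.5% and 28.7% of genes with a peak, UAG 22.7% and 22.9%, against 22.0% and 22.1%, and UGA 48.2% and 49.7%, against 49.5% and 49.3%. Where the peak covered the stop codon, UAA was less common, at 22.2% (19.5 to 25.1) of 877 genes and 20.7% (18.1 to 23.4) of 943, and UGA reached 53.3% and 53.0%. The base after such a covered stop codon was C in 17.0% and 15.8%, against 22.4% of genes with a peak in each library, and G in 35.2% and 36.0%, against 31.2% and 31.1%.

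Sequence at the summits was compared with windows of the same transcript 100 nt farther from the stop codon. Each gene entered once a side with its strongest member, which gave 1612 and 1739 windows of 51 nt before the stop codon and 959 and 933 after it. A list of 16 motifs was searched on the transcript strand only, and a match is a description and not a site of action. GGACU, the word printed above, was in 11.8% and 13.1% of summit windows before the stop codon, against 5.77% and 6.10% farther away. After the stop codon it was in 15.3% and 16.0%, against 5.11% and 5.14%. Of all windows centred on stop codons, 6.13% hold it. The 95% intervals of summit and comparison shares did not overlap on either side in either library. These intervals leave out the pairing of windows within a transcript, and the difference was not tested. The share before the stop codon was not highest in the strongest members. With 20 reads or more it was 6.72% (4.03 to 10.4) and 9.90% (6.83 to 13.8), and with 10 to 19 reads 14.6% (11.1 to 18.7) and 13.7% (10.5 to 17.5). After the stop codon the strongest members had 14.9% and 14.1%. Methylation was not measured here, so these counts say nothing of whether the word carries N6-methyladenosine.

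The word lay close to the summit. After the stop codon, the 10 nt before the summit held 60.9 ± 0.105 words per 1000 windows and the 10 nt from the summit on 54.9 ± 6.96, against 12.1 ± 1.54 at 51 to 60 nt before the summit. Before the stop codon the same bins held 40.1 ± 3.36 and 44.6 ± 2.69, against 13.5 ± 2.25. Coverage of the sites themselves was counted in the 5961 genes with at least 30 peak reads in each library. Within 50 nt after their stop codons, 17.2% (13.7 to 21.3) of 406 GGACU words lay under a peak of both libraries. For the other orders of the same letters the share was 7.59%. Before the stop codon the shares were 25.6% (20.9 to 30.9) of 312 words and 12.5%. Of related words, GGACA was covered at 8.75% (6.17 to 11.96) after the stop codon and 20.7% (17.1 to 24.6) before it, where its interval overlapped that of GGACU. The word GGACC was covered at 6.22% after and 14.7% before the stop codon.

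**Figure D4:**
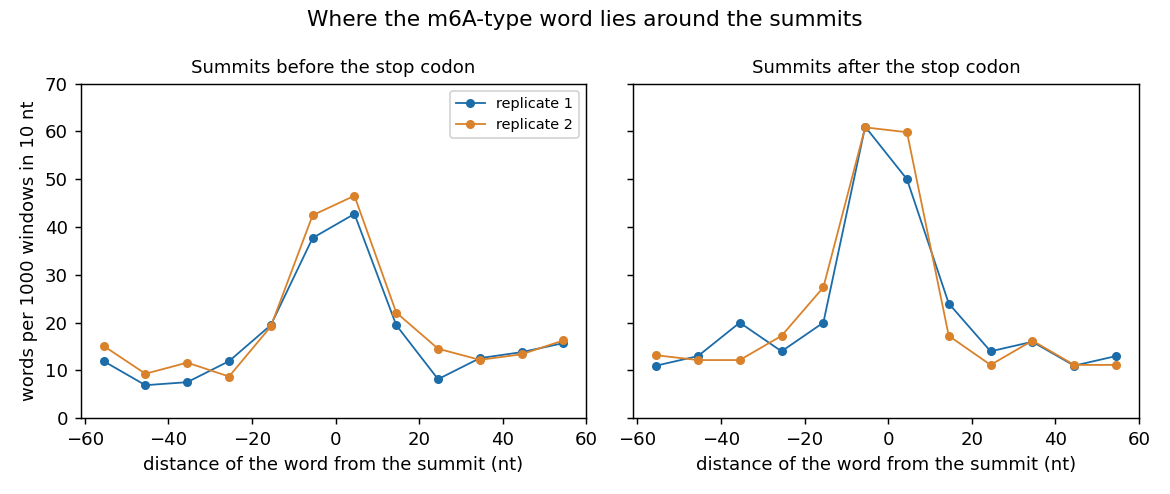
GGACU words per 1000 windows in bins of 10 nt (vertical axis) by distance from the summit in nt (horizontal axis), for members with summits before the stop codon (left) and after it (right), 1 line per library. Both panels peak within 10 nt of the summit, at 40.1 and 44.6 words before the stop codon and 60.9 and 54.9 after it, as means of the libraries.

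GGACU at summits was not particular to the stop codon. Here windows were compared with windows at the same distance from the stop codon, a comparison added after the data were seen. The background came from genes with a peak and at least 300 nt of CDS and of 3′ UTR. Summit windows came from genes of any length. Summits 1 to 50 nt after it had the word in 15.8% ± 0.374 of windows, 2.41 times the share of all windows there (6.56%). Flank summits after it had it in 11.8% ± 0.359, 2.30 times their own background (5.15%). Before the stop codon the ratio was 2.20 within 50 nt and 1.92 in the flank. The differences between these ratios were not tested. Neither was GGACU alone among words of its letters. For its 60 orders the background was windows at set distances within 50 nt of the stop codon in all genes with a peak. GGACU ranked 3 among the orders before the stop codon. Its mean ratio was 2.08, against a median of 1.19 for the others and 2.12 for GUCGA. After the stop codon GGACU ranked 2, with 2.34, behind GACUG at 2.37, which overlaps it.

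**Figure D5:**
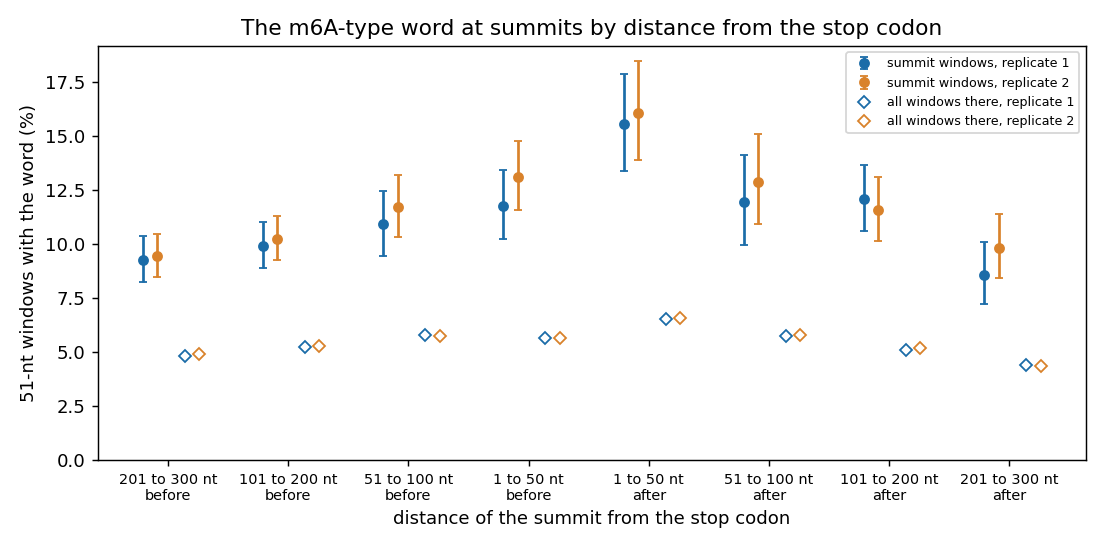
Percent of 51-nt windows with the GGACU word (vertical axis) by distance of the summit from the stop codon (horizontal axis), filled circles for summit windows with exact 95% intervals and open diamonds for all windows at that distance, in both libraries. The background is from genes with a peak and at least 300 nt of CDS and of 3′ UTR. Summit windows lie above their background at every distance, and the highest share is 15.8% at 1 to 50 nt after the stop codon.

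The Pumilio element UGUANAUA was in 2.82% and 3.00% of summit windows after the stop codon, against 1.25% and 1.82% of windows 100 nt farther and 0.843% and 0.869% of all windows at the same distance. The main ratio was 2.25 and 1.65 in the libraries. It depended on the choice of windows, with a mean of 1.04 when windows reached 50 nt to each side of the summit and 4.06 for members found in both libraries. Within 50 nt after the stop codons of the same 5961 genes, 23 of 64 such elements (35.9%, 24.3 to 48.9) lay under a peak of both libraries. ATF4 and HSPA5 were among them, and the share of all bases there was 6.27%. HSPA5 encodes the endoplasmic reticulum chaperone BiP, and its member held 37 and 31 reads. MRPL16, a mitochondrial ribosomal protein, had 50 and 49 reads and TRIR 25 and 24. Nor was the element particular to summits near the stop codon. Here the background was windows at the same distance in genes with at least 300 nt of CDS and of 3′ UTR. Flank summits after the stop codon had the element in 3.87% and 4.11% of windows, a mean of 3.575 times their background. By this count summits 1 to 50 nt after it had 3.24% and 3.51%, a mean of 4.37 times. The difference was not tested. Of all stop-codon windows, 0.400% hold the element. Before the stop codon it was in too few windows to compare, 6 of 1612 in replicate 1.

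Several words were less common at summits after the stop codon than 100 nt farther, though not all of them against windows at the same distance in all genes. The poly(A) signal AAUAAA was in 1.67% and 2.14%, against 4.90% and 4.61% (3.09% of all stop-codon windows), the C-rich word CCUCCC in 1.77% and 1.07%, against 3.75% and 3.86% (3.24%), and the run UUUUUU in 4.07% and 4.50%, against 7.09% and 7.18% (1.49%). At the same distance in all genes AAUAAA was in 3.53% in each library and CCUCCC in 4.43% and 4.49%, both above the summit shares, but UUUUUU was in 3.51% and 3.53%, below them. Of the other motifs, AUUUA was in a mean of 6.35% of summit windows after the stop codon, against 9.09% (4.46% of all stop-codon windows), and the G-rich pattern GGGNNNGGG in 4.65%, against 2.27% (2.57%). At the same distance in all genes AUUUA was in 5.95% and 5.96%, no higher than at the summits, and GGGNNNGGG in 3.72% and 3.78%. A further 8 motifs, 4 microRNA sites among them, were each in under 2% of windows on either side, and are not compared here. Summit windows after the stop codon held more G, at 27.8% and 28.4% of bases against 22.2% and 22.3%, and less U, at 25.5% and 25.6% against 30.4% in each library. Base composition therefore moved with the motif shares, and its part in them was not tested.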

How the data were processed

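Per the labels, the RNA was cytoplasmic and the library kit was for microRNAs. The submitters' processing notes list cutadapt 4.2, UMI-tools 1.1.4, STAR 2.7.11 and genome build GRCh38, with no role given. The authors deposited 1 peak list per library, made by CLIPper per the file names, with a score column that held a p-value per peak, the largest 0.046 (no adjustment stated). The deposited peak name carries a read count per peak, which is an unnormalised count. Which CLIPper version and gene annotation were used is not given in the sources used here. Such a count depends on how reads at several loci were handled, and a read can fall in several peaks.

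Members were found with GENCODE 29 after stripping gene version numbers. Coordinates are 1-based on GRCh38. Computations used Python 3.11.15 with pandas 2.3.3 and numpy 2.4.6. Intervals came from scipy 1.17.1, and figures from matplotlib 3.10.9. Placement was tested on simulated data. The 2 libraries were taken as replicates of 1 group and nothing was tested between groups. Copies were counted as annotated transcripts of other genes holding the 25 nt around the summit. Genes were named as the leading 10 before and 10 after the stop codon and up to 5 in it, by the smaller library's reads, the 5 with the highest share of their reads in members, CCR4-NOT subunits and the leading genes of each list, not all of which are printed. HSP90AB1 and the genes of the printed words were chosen after their values were seen, except where the rule names them. Members, gene lists and motifs were chosen with earlier results of these data known. Some selected items, 1 searched motif among them, are not reported here.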

Additional observations from a re-analysis of the deposited data

How the results depend on the processing

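Each alternative changed 1 choice. The mean number of members per library, 2942.5, became 1501 with a window of 25 nt, 6053.5 with 100 nt, 1309.5 at a deposited p-value at or under 1e-05 and 1112.5 at 10 reads or more. The share of peaks that are members, 2.80%, became 3.58% at that p-value, 3.57% at 10 reads, 2.91% for distinct positions and 4.09% with the stop codon of any coding transcript. The density ratio before the stop codon, 0.846, was 0.785 with summits weighted by reads. The ratio after it, 0.956, turned to 1.04 against a flank beyond 200 and up to 300 nt and to 1.02 with summits weighted by reads; the cause was not tested. The share of summits before the stop codon, 61.0%, was 56.7% within 25 nt, 64.0% within 100 nt and at the stricter p-value, 63.7% at 10 reads and 64.2% by reads. The overlap between libraries, 63.0%, was 59.7% when at least 50% of the shorter peak had to overlap, 89.5% at 10 reads and 86.7% at the stricter p-value. At 10 reads UAA reached 30.6% and UAG 21.4%.

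For the motif ratios the order of settings is windows reaching 50 nt to each side, a comparison 200 nt farther, and members found in both libraries. GGACU before the stop codon, 2.10, gave 1.45, 2.41 and 2.38, and after it, 3.05, gave 2.10, 3.32 and 3.66, and 2.35 against the same distance in all genes. UGUANAUA after it, 1.95, gave 1.04, 3.12 and 4.06, with 3.40 at the same distance. The comparison at the same distance was chosen after seeing the data.

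Leaving out 1 library at a time gave ranges of 2877 to 3008 members, 2.75% to 2.85% of peaks, density ratios of 0.806 to 0.885 before and 0.918 to 0.993 after the stop codon, 60.3% to 61.8% of summits before it, UAA 27.4% to 29.2%, UAG 22.7% to 22.9% and UGA 48.2% to 49.7%. The motif ratios ran from 2.04 to 2.15 (GGACU before), 3.00 to 3.10 (GGACU after) and 1.65 to 2.25 (UGUANAUA). No paired analysis was possible because both libraries belong to 1 group. Among the limits are few reads per member, with a median of 7, copies in other genes and the lack of an input library.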

Other observations

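Other members of the named lists were weaker. CCT5 and CCT8, subunits of the chaperonin that folds actin and tubulin, had members over their stop codons of 48 and 45 reads and of 55 and 38 reads. LDHB, a lactate dehydrogenase with known readthrough of its stop codon, had 58 and 39 reads, with summits 25 and 27 nt before it. SELENOF, a selenoprotein, had 39 and 34 reads over its stop codon. SELENOH had 29 and 25 reads at a position listed under 2 gene entries, so its identity is uncertain. BTG1, an antiproliferative factor that binds CCR4-NOT, had 9 and 12 reads, 17 and 22 nt after the stop codon. CDKN1B had a member of 12 reads in replicate 2 alone, with no overlapping peak in replicate 1.

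EIF1, which guides start codon choice, had 2 members per library, of 43 and 61 reads and of 88 and 104 reads. The second has copies in 2 and 3 other genes.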
